A study of Mus musculus with 2 samples.

Results

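Superoxide and peroxide defence enzymes were examined in ventral midbrain RNA of mice aged 2 months. The RNA was sequenced as 1 Ctrl-labelled library and 1 OE-labelled library. The genes are Sod1, Sod2, Gpx1, Gpx4, Prdx3, Prdx5, Txn2, Txnrd2, Cat and Glrx2. They were picked by symbol and function, with earlier results of these data known. All 10 were found among the 31252 gene rows. By the labels, both groups carry Slc6a3-Cre, which puts Cre recombinase under the dopamine transporter gene and so directs it to dopaminergic (DA) neurons. OE mice also carry CAG-S-COUP-TFII, an allele at ROSA26 from which Cre switches on the orphan nuclear receptor COUP-TFII. The strain is given as Incipient congenic C57BL/6 for both. In the breeding scheme of the study, Ctrl and OE littermates descended from females with 2 floxed Tfam alleles and 2 tdTomato reporter alleles, so both groups of that cross carry at least 1 floxed Tfam allele. The labels of these libraries do not mention Tfam or tdTomato. The sources used here do not state how many mice went into each library.

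Mitochondrial respiration leaks electrons to oxygen and forms superoxide. Superoxide dismutases turn it into hydrogen peroxide, Sod1 with copper and zinc in the cytosol and the space between the mitochondrial membranes, and Sod2 with manganese in the matrix. Hydrogen peroxide is then reduced to water by glutathione peroxidases, by peroxiredoxins that thioredoxin recharges, or by catalase in peroxisomes. DA neurons carry an added load, since monoamine oxidase forms hydrogen peroxide when it breaks down dopamine.

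The libraries held 16984336 counts (labelled Ctrl) and 21326632 counts (labelled OE). Counts were scaled with the TMM method of edgeR to normalized counts, and fold changes are given as log2 of the OE-labelled library over the Ctrl-labelled library after a pseudocount of 0.5 normalized counts. With 1 library per group there is no replicate check and no p-value. Each fold change carries a 95% interval from the exact binomial (Clopper-Pearson) limits of how a gene's counts divide between the libraries. Such an interval reflects counting error alone, and it sets 1 library against another rather than genotype against genotype. Nr2f2, the gene of COUP-TFII and so the check of the labels, had 637 counts in the Ctrl-labelled library and 377 in the OE-labelled library, a log2 fold change of -1.07 (interval -1.26 to -0.88). That direction goes against the labels. The rise of COUP-TFII mRNA that the study reported was measured in isolated DA neurons, while these libraries are of whole tissue. The sources used here do not say whether transcripts of the allele are counted under Nr2f2. Each direction below is that of the labels as given, and every sign would turn over if the labels were exchanged.

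Gpx1, Gpx4 and Txnrd2 encode selenoproteins. Each holds selenocysteine, placed by a TGA codon that elsewhere ends translation, and its selenium atom reacts with the peroxide or passes on electrons. Their selenocysteine codons are shown because they set these enzymes apart from the other 7 genes. The reading frame around each codon, from GENCODE M21 transcripts (GRCm38, plus strand), is printed with TGA in capitals.
Gpx1: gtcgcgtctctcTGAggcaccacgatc
Gpx4: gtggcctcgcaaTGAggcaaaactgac
Txnrd2: gtgactggttgcTGAggc
The TGA of Gpx1 lies at chr9:108339451-108339453 and is codon 47 of 201. That of Gpx4 lies at chr10:80054737-80054739 and is codon 129 of 253 in its longest coding sequence. In Txnrd2 it lies at chr16:18477772-18477774 and is codon 526 of 527, so the reactive residue is followed by a single glycine codon.

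Of the superoxide dismutases, the cytosolic enzyme differed most between the libraries. Sod1 (chr16:90220754-90226329) had 2623 counts in the Ctrl-labelled library and 3944 in the OE-labelled library, or 2924 and 3538 normalized counts. Its log2 fold change was 0.28 (interval 0.20 to 0.35), the largest of the 10 genes. Sod2 (chr17:13006846-13040063) had 3069 and 4085 counts, or 3421 and 3665 normalized counts. The difference was 0.099 on the log2 scale (interval 0.031 to 0.17), smaller than that of Sod1 but also above counting error. Its counts were not whole numbers, which RSEM gives for a gene where reads also match other genes. The extracellular dismutase Sod3, with 169 and 194 counts, had a log2 fold change of -0.11 (interval -0.42 to 0.19). Ccs, the chaperone that loads copper into Sod1, had 183 and 233 counts and a log2 fold change of 0.035 (interval -0.25 to 0.32). For neither was a difference detectable at this depth.

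Of the 2 glutathione peroxidases among the genes, Gpx1 had an interval above 0 and Gpx4 did not, but the difference between them was not separated from counting error. Gpx1 (chr9:108338903-108340343), which reduces soluble peroxides, had 745 and 1030 counts, or 830 and 924 normalized counts. Its log2 fold change was 0.15 (interval 0.017 to 0.29). Gpx4 (chr10:80047166-80056439), which reduces lipid peroxides within membranes and so guards against ferroptosis, had 3172 and 4043 counts, or 3536 and 3627 normalized counts. Its log2 fold change of 0.037 (interval -0.031 to 0.10) was not separated from 0 by counting error, despite its high counts. The count ratio of Gpx1 to Gpx4 changed by 0.12 on the log2 scale (interval -0.034 to 0.27). Among relatives, the secreted Gpx3 had 752 and 979 counts and a log2 fold change of 0.067 (interval -0.071 to 0.21). Gpx7 (39 and 39 counts) and Gpx8 (67 and 78 counts) had wide intervals that held 0. Gpx2 and Gpx6 had at most 3 counts in either library, and Gpx5 had 0 in both.

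In the mitochondrial thioredoxin system, Txnrd2 passes electrons from NADPH to Txn2, and Txn2 recharges Prdx3 and Prdx5. Prdx5 (chr19:6906697-6910106), found in mitochondria, peroxisomes and the cytosol, had 1705 and 2393 counts, or 1901 and 2147 normalized counts. Its log2 fold change was 0.18 (interval 0.086 to 0.27), the highest after that of Sod1. Prdx3 (chr19:60864051-60874556), which resides in the mitochondrial matrix, had 1231 and 1608 counts, or 1372 and 1443 normalized counts, and 0.072 (interval -0.036 to 0.18). Txn2 (chr15:77915047-77929006) had 1284 and 1701 counts, also not whole, or 1432 and 1526 normalized counts, and 0.092 (interval -0.013 to 0.20). The interval of Prdx5 lay above 0 and those of Prdx3 and Txn2 held 0, yet the count ratios of Prdx5 to either changed by amounts whose intervals held 0. Txnrd2 (chr16:18426384-18479073), with 150 and 198 counts, was the least abundant of the 10 genes, and its log2 fold change of 0.087 had the widest interval (-0.23 to 0.40). The change of the ratio of Prdx5 to Txnrd2 was 0.089 (interval -0.23 to 0.41). Glrx2 (chr1:143716338-143749676), the mitochondrial glutaredoxin that removes glutathione from protein thiols, had 957 and 1225 counts, or 1067 and 1099 normalized counts. Its log2 fold change was 0.043 (interval -0.080 to 0.17). Trmt112, which overlaps Prdx5 on the opposite strand, differed by 0.26 (interval 0.048 to 0.47). Scaf4 overlaps Sod1, also on the opposite strand, with a log2 fold change of 0.050 (interval -0.12 to 0.22). Txnrd2 overlaps a gene on the opposite strand as well. The kit keeps the strand, but whether the counting used it is not given in the sources used here.

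Catalase went the other way. Cat (chr2:103453849-103485160), the peroxisomal enzyme that splits hydrogen peroxide without a thiol partner, had 1492 counts in the Ctrl-labelled library and 1619 in the OE-labelled library. After scaling these were 1663 and 1452 normalized counts. Its log2 fold change of -0.195 (interval -0.30 to -0.093) made it the only gene of the 10 that was lower in the OE-labelled library.

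**Figure D1:**
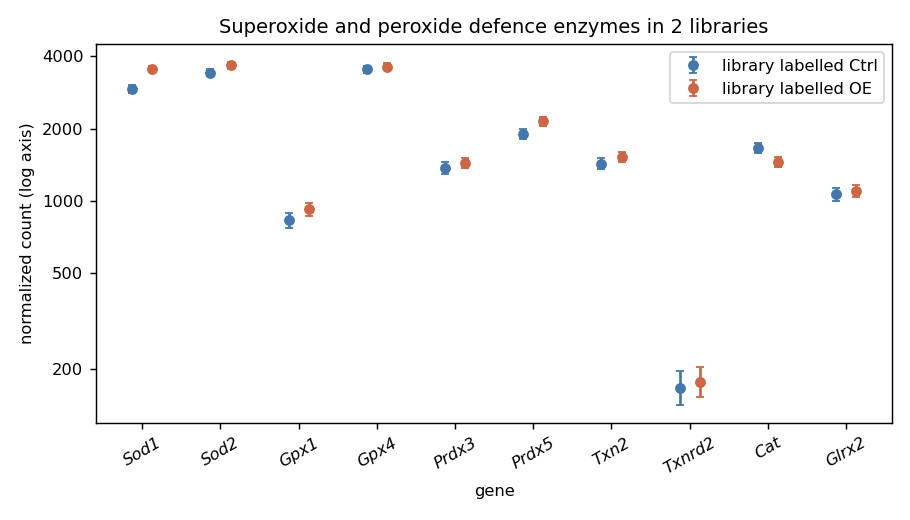
Normalized counts (log axis) of the 10 genes in the Ctrl-labelled library (blue) and the OE-labelled library (orange), 1 point per library, with exact 95% Poisson intervals that cover counting error only. Sod1 is higher in the OE-labelled library (2924 and 3538), Cat is lower (1663 and 1452), and the intervals of Gpx4 and Glrx2 overlap widely.

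Set together, 9 of the 10 genes were higher in the OE-labelled library by sign, where 51% of the 15246 genes that averaged 10 or more counts had a value above 0. Their median log2 fold change was 0.090, against 0.0046 over all these genes. Past the fold of log2 0.2 that the study used, 1 gene was higher (Sod1) and 0 were lower. Over all genes these shares were 17.9% higher and 16.6% lower, so 1 of 10 is no more than the background. Of genes that averaged 1000 or more counts, which include 8 of the 10, 7.95% were higher and 6.95% lower by as much. Cat at -0.195 and Prdx5 at 0.18 came nearest to this fold without passing it.

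Counting intervals lay above 0 for 4 genes (Sod1, Sod2, Gpx1 and Prdx5) and below 0 for 1 (Cat). The background was 15.8% above and 14.4% below over all genes, and 25.4% above and 21.8% below among those averaging 1000 or more counts, where 3 of 8 and 1 of 8 of these enzymes stood. In the ranking of all genes by fold change, Sod1 stood at percentile 87.6, Prdx5 at 79.8 and Gpx1 at 77.3. Gpx4 and Glrx2, at 57.0 and 58.2, were near the middle. Cat stood at percentile 17.1. The 5th and 95th percentiles of all genes were -0.50 and 0.54, so that all 10 genes lay well within the bulk.

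**Figure D2:**
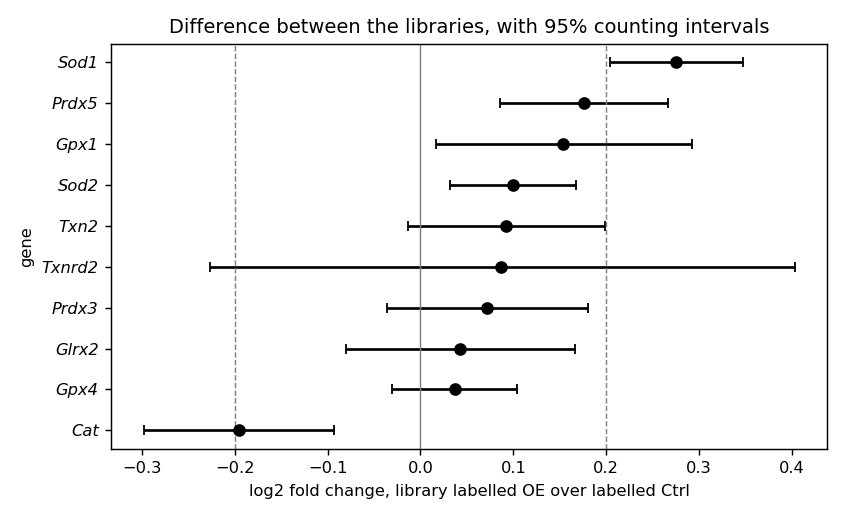
Log2 fold change (OE-labelled library over Ctrl-labelled library) of each gene with its 95% counting interval, and dashed lines at the fold of 0.2 in either direction. Sod1 is the only point past a dashed line, and Cat at -0.195 is the only point left of 0.

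**Figure D3:**
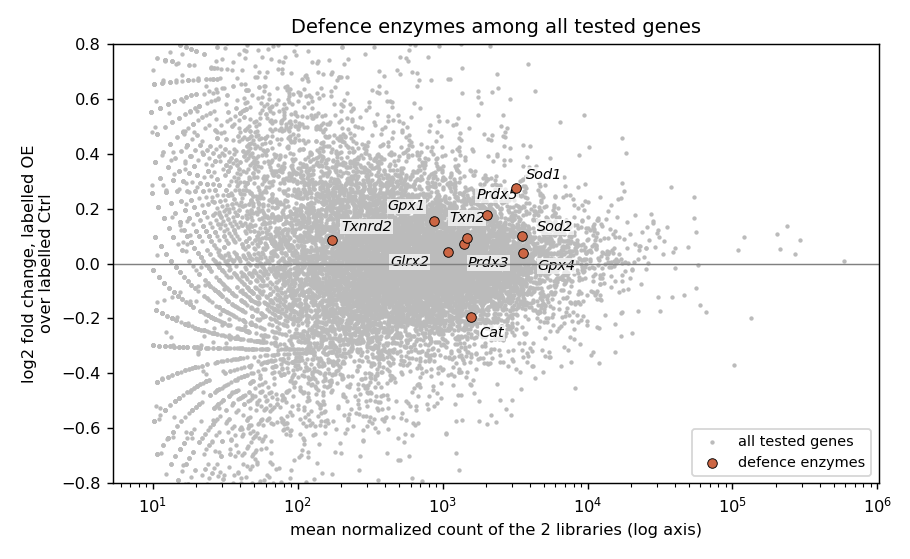
Log2 fold change (OE-labelled library over Ctrl-labelled library) against the mean normalized count (log axis) for all 15246 tested genes (grey) and the 10 enzymes (orange). The axis ends at 0.8 in either direction and 716 grey points lie beyond it. The enzymes lie within the cloud of other genes, with Sod1 on its upper side and Cat on its lower side.

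Ratios between the enzymes within a library do not depend on scaling. Of the 45 pairs, 14 had a 95% interval on the change of their ratio (normal approximation on counts, counting error only, not adjusted for the number of pairs) that did not hold 0. Cat took part in 8 of these and Sod1 in 6, with the pair of Sod1 and Cat counted in both. The pairs share their genes and so are not separate results. The share among pairs of other genes was not computed, so the 14 have no background beside them. There were 1.76 counts of Sod1 for each count of Cat in the Ctrl-labelled library and 2.44 in the OE-labelled library, a log2 change of 0.47 (interval 0.35 to 0.59). Against its matrix counterpart Sod2, the count ratio of Sod1 was 0.855 and 0.965, a change of 0.18 (interval 0.078 to 0.27). Prdx5 and Cat, which share the peroxisome, stood at 1.14 and 1.48, a change of 0.37 (interval 0.24 to 0.51). Of the 28 pairs without Cat or Sod1, 1 had an interval off 0, that of Gpx4 and Prdx5, with ratios of 1.86 and 1.69 and a change of -0.14 (interval -0.25 to -0.027).

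Levels between genes were compared as CPM, counts relative to the library total, per kilobase of the longest protein-coding transcript in GENCODE M21. By this length Sod1 was the most abundant enzyme, with a level of 241 in the Ctrl-labelled library and 289 in the OE-labelled library. Gpx4 followed with 188 and 191, and Prdx5 with 79.5 and 88.9. Prdx3 had levels of 49.0 and 51.0, Gpx1 40.9 and 45.1, Txn2 36.9 and 38.9, and Glrx2 16.0 and 16.3. Txnrd2 was last with levels of 3.07 and 3.23. Cat and Sod2 were the only genes whose order differed between the libraries. Cat had a level of 33.6 and Sod2 of 30.8 in the Ctrl-labelled library, and Cat had 29.1 and Sod2 32.7 in the OE-labelled library. The order also depends on the length used. Sod2 has transcripts from 451 to 5861 bases, and per kilobase of coding length it ranked 2nd, with a level of 271 in the Ctrl-labelled library, behind Sod1 with 334. Per kilobase of the shortest protein-coding transcript, Sod2 ranked 1st in both libraries with levels of 401 and 425, and Sod1 with 241 and 289 ranked 3rd in the Ctrl-labelled library and 2nd in the OE-labelled library. Txnrd2 was last with each of the 3 lengths.

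The upstream sequences of Sod1 and Cat are shown because these genes lay at the opposite ends of the 10. Each is the 250 bases before the start of transcription in RefSeq (GRCm38.p6), 5′ to 3′ on the strand of the gene, with motif matches in capitals. Sod1 is read from chr16:90220512-90220761 on the plus strand and Cat from chr2:103485154-103485403 on the minus strand.
Sod1: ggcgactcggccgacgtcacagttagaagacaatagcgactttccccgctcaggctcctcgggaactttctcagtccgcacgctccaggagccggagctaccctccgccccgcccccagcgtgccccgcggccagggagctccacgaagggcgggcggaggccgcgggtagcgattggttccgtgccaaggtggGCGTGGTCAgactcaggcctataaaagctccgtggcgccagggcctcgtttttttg
Cat: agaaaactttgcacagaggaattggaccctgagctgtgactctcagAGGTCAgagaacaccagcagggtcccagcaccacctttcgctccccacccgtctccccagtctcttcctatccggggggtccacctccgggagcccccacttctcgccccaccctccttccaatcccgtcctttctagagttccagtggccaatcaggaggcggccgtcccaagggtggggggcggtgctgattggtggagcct
The core of the antioxidant response element, searched as TGACNNNGC on both strands of the 300 bases from 250 before to 50 after each start, matched in 1 of the 16 promoter windows of these genes. That match is the GCGTGGTCA of Sod1, on the minus strand of the window, 56 bases before the start. Over all 32851 promoter windows 12.4% held the motif. The hexamer AGGTCA, to which many nuclear receptors bind, was found in windows of 5 of the 10 genes (Cat, Glrx2, Gpx4, Prdx3 and Txnrd2), in 5 of 16 windows, against 16.3% of all windows. Genes with several starts have more windows, and none of the matches overlapped a match of the other motif. AGGTCA repeated in the same direction with 1 base between the copies matched in 0 of the 16 windows and in 0.0396% of all windows. The windows of these genes had a median of 21.5 CpG dinucleotides, and the median over all windows was 7. These matches describe the letters and were not tested for binding.

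Beyond the 10 genes, 97 further redox genes in 11 lists were examined, of which 92 averaged 10 or more counts. Past log2 0.2, 18 of these were higher and 6 lower, and the median log2 fold change was 0.063. The backgrounds for these counts are the 17.9% and 16.6% given above. The intervals lay above 0 for 23 and below 0 for 8. The backgrounds for these are 15.8% and 14.4% over all genes, and 25.4% and 21.8% among those averaging 1000 or more counts.

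The other genes of the thioredoxin and glutaredoxin systems were higher by sign in 12 of 12 cases, with a median of 0.15. Past log2 0.2, 2 were higher and 0 lower, against 17.9% and 16.6% of all genes. Intervals lay above 0 for 5, against 15.8% of all genes and 25.4% of those averaging 1000 or more counts. The cytosolic partners Txn1, with 675 and 951 counts, and Txnrd1, with 1164 and 1611 counts, had log2 fold changes of 0.18 (interval 0.038 to 0.33) and 0.16 (interval 0.046 to 0.27). Srxn1, which repairs overoxidised peroxiredoxins, had 2086 and 2974 counts and a log2 fold change of 0.20 (interval 0.12 to 0.28). Glrx5, the mitochondrial glutaredoxin of iron-sulphur cluster assembly, had 442 and 670 counts and 0.29 (interval 0.11 to 0.46). The interval of Txnrd3 held 0, as did those of Glrx (726 and 991 counts) and Glrx3 (1550 and 2025 counts). Of the other peroxiredoxins, Prdx2 had 2630 and 3592 counts and 0.14 (interval 0.064 to 0.21). Prdx1, with 2776 and 3447 counts, stood at -0.00088 and Prdx6, with 2952 and 3722 counts, at 0.021, both with intervals that held 0. Prdx4, the peroxiredoxin of the endoplasmic reticulum, had 284 and 322 counts and -0.13 (interval -0.37 to 0.10).

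A list of 8 genes around Nrf2, the factor that switches on antioxidant genes, had the highest median of the redox lists, 0.21. Of its genes, 5 were higher by more than log2 0.2, against 17.9% of all genes. Counting intervals lay above 0 for 4, against 15.8% of all genes and 25.4% of those averaging 1000 or more counts. The list leaves out targets of Nrf2 that stand in other lists and differed in both directions. Slc7a11 stood at -0.35 and Gclc at -0.077, Srxn1 at 0.20 and Gclm at 0.059. Fth1, the heavy chain of the iron store ferritin, had 30550 and 46061 counts and a log2 fold change of 0.28 (interval 0.26 to 0.30), and the light chain Ftl1 had 0.21 (interval 0.14 to 0.28). Park7, the peroxide sensor DJ-1, had 1059 and 1543 counts and 0.23 (interval 0.12 to 0.34), and Keap1, the inhibitor of Nrf2, had 0.22 (interval 0.086 to 0.35). Nfe2l2, the gene of Nrf2 itself, had 432 and 581 counts and 0.11 (interval -0.068 to 0.30). The intervals of its known targets Nqo1 and Hmox1 also held 0, at 91 and 131 counts and at 91 and 128 counts. Nqo1, at 0.21, was nevertheless 1 of the 5 genes past log2 0.2.

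Genes of glutathione synthesis and recycling were divided, with 4 of 8 higher by sign and a median of 0.0019. Slc7a11, which imports cystine for glutathione, had 824 and 805 counts and a log2 fold change of -0.35 (interval -0.49 to -0.20). Slc25a39, the carrier of glutathione into mitochondria, had 1027 and 1508 counts and 0.24 (interval 0.13 to 0.36), and glutathione reductase Gsr had 349 and 499 counts and 0.20 (interval 0.0024 to 0.40). The glutathione S-transferases had a median of 0.025, from -0.24 for Gstt1 to 0.40 for Mgst1. Mgst1, a membrane enzyme, had 212 and 347 counts, and Gsto1 differed by 0.33 (interval 0.14 to 0.52). Among 8 genes that supply NADPH the median was 0.076. Me3, the mitochondrial malic enzyme, had 356 and 551 counts and 0.32 (interval 0.12 to 0.51), Pgd of the pentose phosphate pathway had 0.25 (interval 0.11 to 0.40), and Idh1 had -0.15 (interval -0.28 to -0.031).

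The machinery that makes selenoproteins showed little difference. Its 9 genes had a median of -0.036, none past log2 0.2 in either direction, and 1 interval below 0, that of the selenoprotein P receptor Lrp8. Of the rest, Scly had 320 and 447 counts, Pstk 190 and 255, and Trnau1ap 141 and 157, each with an interval that held 0. The selenoproteins Gpx1, Gpx4 and Txnrd2 had log2 fold changes of 0.15, 0.037 and 0.087. Among 17 genes listed for peroxisomes, the compartment of catalase, the median was 0.028. Pex7, the import receptor for proteins with an amino-terminal signal, had 449 and 457 counts and -0.29 (interval -0.48 to -0.097). Pex5, the import receptor that carries catalase, had 735 and 975 counts and 0.094 (interval -0.045 to 0.23). Pmp22, with -0.29 (interval -0.42 to -0.17), stands in this list by its name, yet it encodes a protein of myelin.

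Sources of superoxide and peroxide differed in both directions. Of 9 such genes with enough counts, 4 were higher and 1 lower by more than log2 0.2, against 17.9% and 16.6% of all genes. Intervals lay above 0 for 3 and below 0 for 1, against 15.8% and 14.4%. Nox4, among the 4, had only 7 and 14 counts and an interval of -0.72 to 2.24. Romo1, a small mitochondrial membrane protein linked to reactive oxygen, had 193 and 407 counts and a log2 fold change of 0.76 (interval 0.51 to 1.02). Xanthine dehydrogenase Xdh had 174 and 312 counts and 0.53 (interval 0.26 to 0.81). Ncf1, a cytosolic subunit of the phagocyte NADPH oxidase, had 119 and 95 counts and -0.64 (interval -1.04 to -0.24). The monoamine oxidases Maoa and Maob, with 1261 and 1682 and with 595 and 803 counts, had log2 fold changes of 0.10 (interval -0.0038 to 0.21) and 0.12 (interval -0.035 to 0.27).

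**Figure D4:**
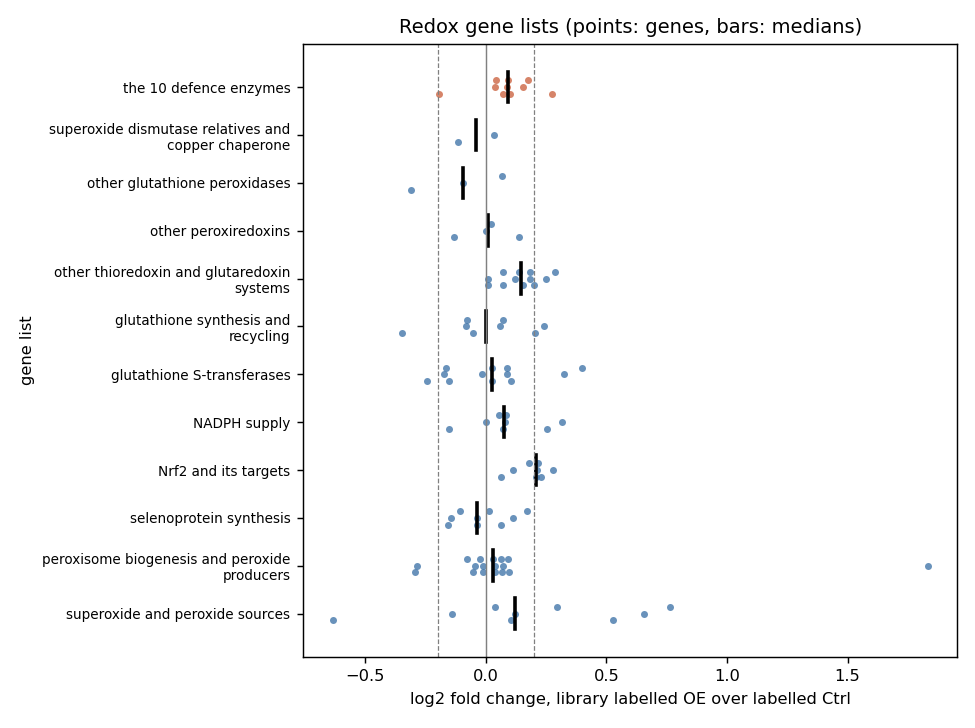
Log2 fold changes (OE-labelled library over Ctrl-labelled library) of the 10 enzymes (orange) and of the genes in 11 further redox lists (blue), 1 point per gene, with black bars at the medians and dashed lines at 0.2 in either direction. The median of the Nrf2 list is 0.21, that of the 10 enzymes 0.090, and the point farthest right, in the peroxisome list, is Dao.

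The labels name DA neurons as the cell type, but the libraries come from whole tissue, and in bulk RNA fewer cells of a type and less RNA per cell cannot be told apart. Each of the 10 DA neuron markers was higher in the OE-labelled library. Their median log2 fold change was 1.24, with summed normalized counts of 27545 and 63930. Aldh1a1, the most abundant of them, differed by 0.83. The study, in contrast, counted fewer DA neurons in OE mice at an older age. It also reported that several aldehyde dehydrogenase genes, the family of Aldh1a1, were repressed in OE ventral midbrain at 2 months. All 8 thalamus markers were lower, with a median of -2.03 and sums of 18846 and 11933. They ranged from -3.93 to -0.17, and their most abundant gene, Slc17a6, differed by -0.23. The medians of both lists were larger in size than the difference of any of the 10 enzymes. Oligodendrocyte markers were lower in 8 of 8 cases (median -0.27, sums of 376223 and 315253), with Mbp at -0.20. Microglia markers were lower in 8 of 9 (median -0.12, sums of 7303 and 6118), and endothelial markers in 6 of 6 (median -0.18, sums of 4203 and 3753), with Flt1 at -0.070 (interval -0.18 to 0.039). By sign, 51% of all genes were higher. Counting intervals lay below 0 for 8 of 8 oligodendrocyte markers, 4 of 9 microglia markers and 3 of 6 endothelial markers. The background below 0 was 14.4% over all genes and 21.8% among those averaging 1000 or more counts. Astrocyte markers had a median of -0.021 (sums of 52203 and 50712), with Aldoc at -0.023, and pan-neuronal markers a median of 0.14 (sums of 101052 and 111832), with Snap25 at 0.055. Red blood cells are rich in peroxide enzymes. Of their markers 3 of 4 were higher, 2 of them with intervals above 0. The sums were 2476 and 2964, and Hba-a2 differed by 0.42. Choroid plexus and ependyma markers summed to 857 and 386, with Foxj1 at 0.063 and Ccdc153 at 21 and 0 counts. The median of the 4 with enough counts was -1.95, and 3 of these were lower. No other marker was at 0 in either library. What part these lists have in the differences of the 10 enzymes was not tested, and with 1 library per group the genotype and the makeup of the tissue cannot be told apart.

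**Figure D5:**
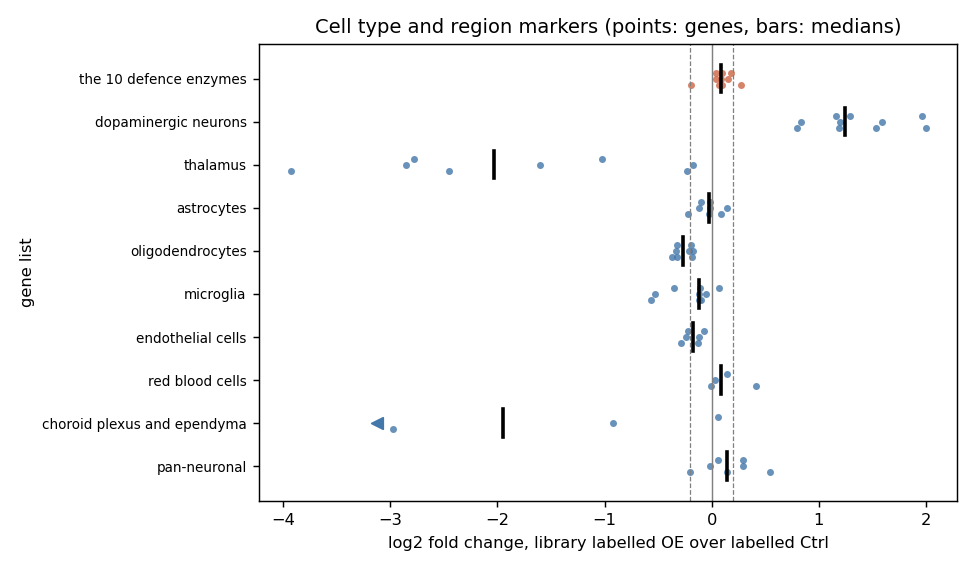
Log2 fold changes (OE-labelled library over Ctrl-labelled library) of the 10 enzymes (orange) and of markers for cell types and regions (blue), 1 point per gene, with black bars at the medians and dashed lines at 0.2 in either direction. The triangle is Ccdc153, drawn at the bound that 3 counts in the OE-labelled library would give. DA neuron markers (median 1.24) and thalamus markers (median -2.03) lie far to either side of the enzymes (median 0.090).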

How the data were processed

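Ventral midbrain RNA was measured in 2 libraries, 1 per group. A sequencing company made stranded polyadenylated RNA libraries, read 50 bases from both ends and processed them in-house. The authors deposited RSEM expected counts per gene without scaling. Per the labels, the submitters' processing notes name mm10. The aligner and the gene annotation are not given in the sources used here. Of the values, 95.4% are whole numbers.

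Columns were assigned by the number they share with the sample titles. TMM factors were 1.01 and 0.995 (edgeR 4.0.16, R 4.3.3), and normalized counts have both library sizes set to their geometric mean. Fold changes used the 15246 genes averaging 10 or more counts. Counts were rounded for Clopper-Pearson intervals (scipy 1.17.1, numpy 2.4.6, pandas 2.3.3, Python 3.11.15). Intervals cover counting error only. The method was run on simulated counts that held counting error only, so that run says nothing about variation between mice. Coordinates and lengths are from GENCODE M21 (GRCm38, the assembly of mm10), and promoters, found for all 10 genes, from RefSeq. Figures used matplotlib 3.10.9.

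The 10 genes and all lists were chosen with earlier results of these data known. Named are the 10 genes, their paralogs, up to 3 genes with the largest difference in each redox list among those with a mean of at least 100 counts, and the most abundant marker of each list, except for a few genes that are not reported here. Other named genes were chosen after their values were seen. Alternatives were 4 other scalings (including DESeq2 1.42.0), a pseudocount of 5, thresholds of log2 0.1 and 0.3, other count minimums and other lengths.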

Additional observations from a re-analysis of the deposited data

How the results depend on the processing

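No paired analysis was possible because there is a single library for either genotype, and for that reason no library could be left out. All 10 enzymes kept their direction under the 4 other scalings and a pseudocount of 5. With 2 libraries a scaling moves every gene by nearly the same amount, so this is 1 check rather than 10. Gpx4, the smallest in size, ranged from 0.022 to 0.050. Sod1 ranged from 0.26 to 0.29, Prdx5 from 0.16 to 0.19, Gpx1 from 0.14 to 0.17 and Cat from -0.21 to -0.18, and the median of the 10 from 0.074 to 0.10. Scaling to the total count, with or without mitochondrially encoded genes, put Cat past the fold, so that 1 gene was lower by more than log2 0.2 in each. A threshold of log2 0.1 gave 3 genes higher and 1 lower, against 30.6% and 28.8% of all genes, and log2 0.3 gave 0 higher, against 11.1%. The upper quartile brought the intervals above 0 to 5 genes, against 4 otherwise, and the share of all genes from 15.8% to 17.6%. Over all genes, the share higher by more than log2 0.2 was 17.9% and 7.95% with a mean of at least 1000 counts, and the share lower 16.6% and 6.95%. The median of all genes stayed between -0.011 and 0.018 under these scalings. For Txnrd2, 150 and 198 counts limit what can be seen. How the 10 enzymes vary between mice cannot be seen from 1 library per group.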

Other observations

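Dao, the peroxisomal D-amino acid oxidase that forms hydrogen peroxide, was named after its values were seen. Its counts were 25 (labelled Ctrl) and 112 (labelled OE), with a log2 fold change of 1.83 (interval 1.21 to 2.54), the largest among the 92 redox genes outside the 10 enzymes that had enough counts. Nos1, neuronal nitric oxide synthase, had 279 and 425 counts and 0.29 (interval 0.073 to 0.52). Sepp1, the gene of selenoprotein P, the carrier of selenium between cells, had 10750 and 13464 counts and 0.012 (interval -0.025 to 0.048).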
